A study of Zea mays with 6 samples.

Results

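Ubiquitin ligases, F-box proteins and the other proteins of ubiquitin transfer were picked out of a maize node RNA-seq table by the protein description that the table gives for each gene. A gene was a member when its description named ubiquitin, an F-box, a RING, a U-box, a BTB domain, SKP1 or a cullin, and no transport inhibitor response protein, ribosomal protein or receptor kinase. In all 133 of the 5546 genes were members. The table compares the stem nodes of 2 genotypes, each with 3 libraries. WT is the inbred line B73. zmte1-2 is a dwarf mutant from chemical mutagenesis, crossed back to B73, in which a C-to-T change puts a premature stop codon into the first exon of ZmTE1, a gene for an RNA-binding protein. It is 1 mutant allele, and the labels spell it zmet1 or zmte1. Plants of both genotypes grew in the field to an age of 28 days, and no sample label names a treatment, although the title of the series speaks of a response to auxin. Nodes were sampled together with internodes according to the labels, whereas the methods name nodes alone, counted from the last brace root.

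Ubiquitin is a small protein that cells attach to other proteins, most often to mark them for the proteasome. An activating enzyme (E1) passes it to a conjugating enzyme (E2), and a ligase (E3) chooses the protein that receives it. RING and U-box proteins bind the E2 directly. F-box and BTB proteins are the part of larger cullin complexes that recognises the substrate, F-box proteins through the adaptor SKP1. In plants the receptors or close signalling partners of auxin, gibberellin and jasmonate are F-box proteins, and RING and U-box ligases have many roles in defence, growth and the cell cycle.

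Values are FPKM, the fragments on a transcript divided by its length in kilobases and by the size of the library. Depth per library was not given in the sources used here. The table lists genes that the authors had already called between these libraries, so an adjusted p here is not a share of false calls. No source says that each library was made from its own plants, and p-values measure the spread between these libraries only. ZmTE1 itself (GRMZM2G085113, chromosome 3 from 165216844 to 165220769; positions are those of the table, with a genome build not given in the sources used here) stood at 0.51, 1.19 and 1.0 FPKM in WT libraries 1 to 3. In zmte1-2 libraries 1 to 3 it stood at 0.33, 0.10 and 0.49 FPKM, all below WT but under the minimum for a test. Within the genotypes zmte1-2 library 2 and WT library 1 stood apart. Across genes, zmte1-2 library 2 had Pearson correlations of 0.729 and 0.627 with libraries 1 and 3, which had 0.936 with each other. WT library 1 had 0.795 and 0.838 with libraries 2 and 3, which had 0.926 with each other. Among stem markers, knotted-1 (GRMZM2G017087), a homeobox gene of the shoot meristem, stood at 142.66, 75.29 and 108.02 FPKM in WT libraries 1 to 3. In zmte1-2 libraries 1 to 3 it stood at 35.33, 81.65 and 16.97 FPKM, so only library 2 lay within WT. It did not pass in limma (log2 fold change -1.51, SE 0.63, adjusted p = 0.0756). It is 1 of 7 genes in a list picked by words in the descriptions, and not every gene of the list is shown to mark the stem meristem. Of these 7 genes 2 fell and 1 rose (28.6% and 14.3%, beside 34.2% and 6.02% of all tested genes). A WUSCHEL-related homeobox 4-like gene (GRMZM6G260565) fell, from 1.79, 1.09 and 1.21 FPKM in WT to 0 FPKM in each zmte1-2 library. It reached the minimum for a test only through WT. The gene that rose is described as liguleless2-like (AC232238.2_FG004). It was listed for that name and is not shown to mark the stem meristem. The 14 listed genes of green leaf tissue summed to 671, 173 and 338 FPKM in WT libraries 1 to 3 and to 95.2 to 134 FPKM in zmte1-2. Of the 12 tested 6 fell, beside 34.2% of all tested genes. GRMZM2G018627 and GRMZM2G414192 have the same values in every library, so these sums and the tested genes hold them as if they were separate. The 11 listed genes of jasmonate and wounding summed to 602 to 1702 FPKM in WT, lowest in library 1. In zmte1-2 they summed to 887 to 4739 FPKM, lowest in library 2, and 1 of the 9 tested fell (11.1%, beside 34.2%). Single genes differed: zmte1-2 library 2 was the highest of all 6 libraries in 3 of the 9 and the lowest in 2. The median FPKM of the list was highest in that library, at 25.7, beside 18.0 and 10.1 in zmte1-2 libraries 1 and 3. The part of these lists in the results below was not tested.

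Most members stood lower in zmte1-2, as did most genes of the table. The mean FPKM was higher in WT for 99 members and higher in zmte1-2 for 34. The summed FPKM of the 133 members was 1039, 688 and 844 for WT libraries 1 to 3. For zmte1-2 libraries 1 to 3 it was 589, 648 and 638, each lower than any WT sum. The sum over all listed genes went the other way. It was 82915, 74348 and 86256 FPKM in WT libraries 1 to 3 and 88628, 87963 and 88368 FPKM in zmte1-2 libraries 1 to 3. The median FPKM of all listed genes was lower in zmte1-2, at 1.56 to 1.92, beside 2.97 to 3.40 in WT. In bulk tissue fewer cells of a type and less RNA per cell cannot be told apart. The zmte1-2 libraries were all lower than the WT libraries for 71 members (53.4%, beside 48.8% of all listed genes) and all higher for 16 (12.0%, beside 11.4%). The groups overlapped for the other 46.

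A gene was tested if 3 or more libraries reached an FPKM of 1, which left 91 members. A gene under 1 FPKM in every zmte1-2 library could pass only through WT, and so could enter only as a fall. Of the members called lower below, this held for ATL3J, ATL6, a BOI-related ligase (GRMZM2G110988), AC233979.1_FG011 and GRMZM2G113039. It also held for GRMZM2G138003, GRMZM2G042752, GRMZM2G169227 and GRMZM5G893055. limma on log2(FPKM + 0.5), adjusted over all 3987 tested genes, called 29 members lower in zmte1-2 and 4 higher at an adjusted p under 0.05. That is 31.9% and 4.40% of the tested members, beside a background of 34.2% lower and 6.02% higher among all tested genes. In either direction 33 members were called, beside 40.2% of all tested genes. These shares are near the background and are not a result about the members. The log2 fold change was negative for 73 of the 91 tested members and for 67.4% of all tested genes, and its median was -1.08 in both. Adjusted p-values of the called members ran from 0.00966 to 0.0489, and 43 of the 58 members that did not pass had an adjusted p between 0.05 and 0.1. Among the 42 members under the FPKM minimum, the zmte1-2 libraries were all lower than WT in 16 and all higher in 7. The listed genes have in the authors' table a change of at least 1 on the log2 scale in either direction, which leaves few members near 0 in the plot of the changes by role.

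**Figure D1:**
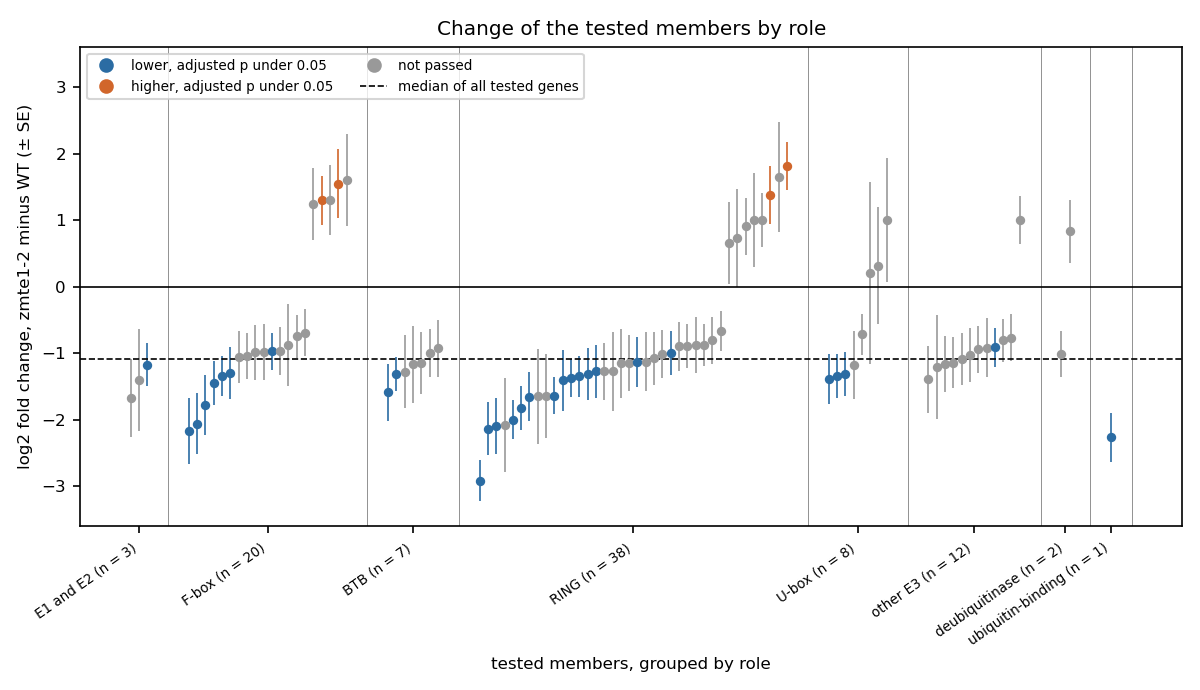
Log2 fold change (zmte1-2 minus WT, on log2(FPKM + 0.5)) with its SE for the 91 tested members, ordered within their roles, with n = 3 libraries per genotype. Blue points passed as lower (29), orange points as higher (4) and grey points did not pass (58); the dashed line is the median of all 3987 tested genes, -1.08, near which many members lie.

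The counts depended on single libraries and on the scaling. Without WT library 3 or without zmte1-2 library 1, limma called 0 members (25 lower and 3 higher, and 28 lower and 5 higher, at an unadjusted p under 0.05). Of all tested genes it then called 0.0502% lower and 0.0251% higher without WT library 3, and 0.0251% in each direction without zmte1-2 library 1. Without WT library 1 it called 2 members lower and 0 higher (28 and 4 at an unadjusted p under 0.05), beside 3.71% and 0.251% of all tested genes. Without WT library 2 it called 25 lower and 2 higher, beside 25.5% and 4.11%, and without zmte1-2 library 3 it called 13 lower and 1 higher, beside 17.6% and 1.86%. Leaving out zmte1-2 library 2 gave 52 lower and 10 higher members, beside 48.9% and 20.2% of all tested genes. With both libraries that stood apart removed (an alternative added once the data had been seen), 47 members were lower and 11 higher, beside 44.8% and 18.9% of all tested genes, and 27 of the 29 falls and 4 of the 4 rises were among them. Median-of-ratios rescaling over the listed genes, which assumes no overall shift among them, moved the median log2 fold change of all tested genes by 1.0, from -1.08 to -0.0767. It left 5 members lower and 10 higher, beside 5.15% and 15.2% of all tested genes, and the 4 rises kept their call. The 5 falls that remained were ATL3J, ATL6, the ADRM1-like gene, a BOI-related ligase and a RING gene (AC233979.1_FG011). All of these but the ADRM1-like gene had in the main fit passed the FPKM minimum only through WT, where they are high. That they remained is therefore not separate support for a fall.

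**Figure D2:**
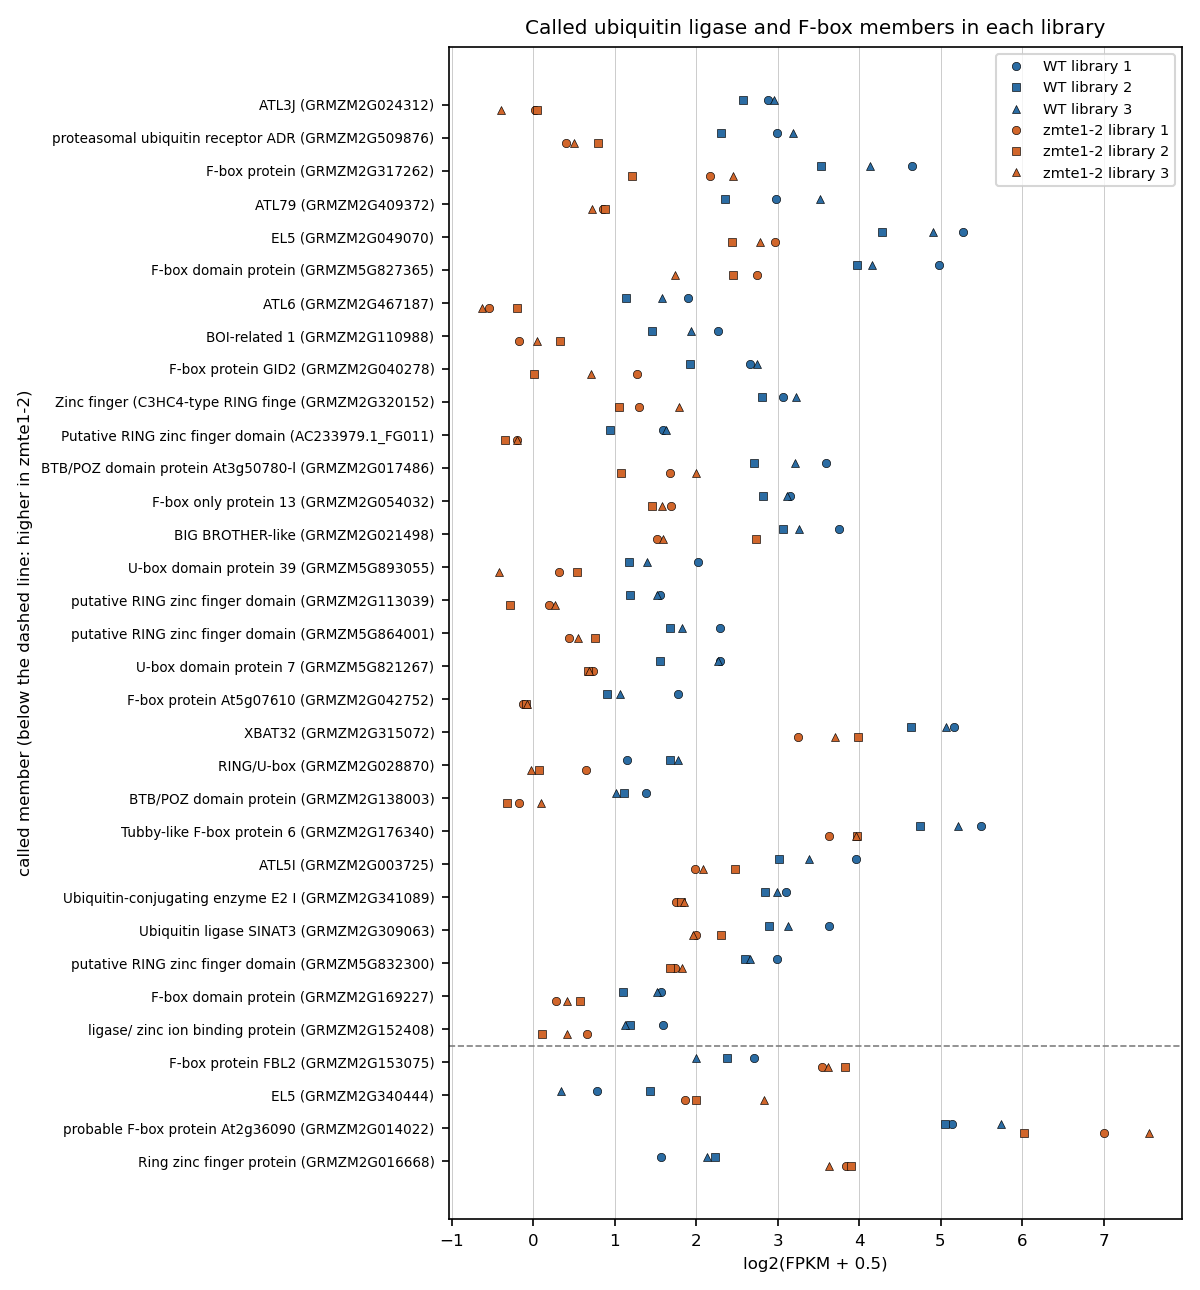
log2(FPKM + 0.5) of the 33 called members in each of the 6 libraries, ordered by their change, with WT in blue and zmte1-2 in orange and a marker shape for each library. The 29 members above the dashed line were lower and the 4 below it higher in zmte1-2, and for none of them do the libraries of the genotypes overlap.

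No gene described as an activating enzyme was a member, and the 3 E2 genes were all tested. Ubiquitin-conjugating enzyme E2 I (GRMZM2G341089, chromosome 2 from 15277265 to 15284706) stood at 8.07, 6.69 and 7.48 FPKM in WT libraries 1 to 3 and at 2.86, 3.03 and 3.10 FPKM in zmte1-2 libraries 1 to 3. E2 I is known as the enzyme that conjugates SUMO, a relative of ubiquitin. Its libraries were close within each genotype and apart between them, and it fell (log2 fold change -1.18, SE 0.32, adjusted p = 0.0350). The other two carry the KEGG orthology of E2 C, which works with the anaphase-promoting complex and so in mitosis. GRMZM2G002830 stood at 46.2, 19.3 and 34 FPKM in WT libraries 1 to 3 and at 8.20, 5.24 and 19.1 FPKM in zmte1-2 libraries 1 to 3. It did not pass (log2 fold change -1.67, SE 0.59, adjusted p = 0.0542), and zmte1-2 library 3 nearly reached WT library 2. GRMZM2G007057 stood at 33.0, 13.9 and 24.6 FPKM in WT and at 8.81, 2.57 and 22.6 FPKM in zmte1-2 libraries 1 to 3, with groups that overlapped (log2 fold change -1.40, SE 0.77, adjusted p = 0.139). In both genes the order of the zmte1-2 libraries was library 3, then 1, then 2. The 12 listed genes of dividing cells (histones H3 and H4, a proliferating cell nuclear antigen and a D-type cyclin) had the same order in their summed FPKM, 780, 611 and 1324 in zmte1-2 libraries 1 to 3, beside 2586, 1505 and 2372 in WT libraries 1 to 3. Of these 12, 4 fell (33.3%, beside 34.2% of all tested genes) and 0 rose (beside 6.02%). In 11 of them every zmte1-2 library was lower than any WT library (91.7%, beside 48.8% of all listed genes). After rescaling limma called 0 of the 12 (0 at an unadjusted p under 0.05). The part of these 12 genes in the E2 values was not tested. Of the 3 E2 genes limma called 0 after rescaling (0 at an unadjusted p under 0.05), and 0 when WT library 1, WT library 3 or zmte1-2 library 1 was left out (1 lower each time at an unadjusted p under 0.05). Without both libraries that stood apart 1 was lower, beside 44.8% of all tested genes.

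Of 23 listed F-box genes 20 were tested, 7 fell and 2 rose, with a median log2 fold change of -0.97. These shares are near the background, 34.2% and 6.02% of all tested genes. After rescaling 0 of 19 fell in limma (2 lower at an unadjusted p under 0.05) and 5 rose, beside 5.15% and 15.2% of all tested genes. The largest falls were in genes described no further than as F-box proteins. GRMZM2G317262 (chromosome 9 from 133838161 to 133839932) stood at 24.6, 11.1 and 17.1 FPKM in WT libraries 1 to 3 and at 4.0, 1.81 and 4.99 FPKM in zmte1-2 libraries 1 to 3 (log2 fold change -2.16, SE 0.50, adjusted p = 0.0247). GRMZM5G827365 (chromosome 3 from 214559544 to 214561574) stood at 31.0, 15.2 and 17.4 FPKM in WT and at 6.2, 4.98 and 2.85 FPKM in zmte1-2 (log2 fold change -2.06, SE 0.46, adjusted p = 0.0231). In both genes WT library 2 was the lowest of WT and still above every zmte1-2 library. A gene described as GID2 (GRMZM2G040278, chromosome 9 from 149144804 to 149145737) stood at 5.84, 3.29 and 6.21 FPKM in WT libraries 1 to 3 and at 1.92, 0.51 and 1.14 FPKM in zmte1-2 libraries 1 to 3. GID2 is the F-box protein that removes the DELLA repressor of gibberellin response in rice, where its loss gives dwarf plants. The maize gene fell (log2 fold change -1.78, SE 0.44, adjusted p = 0.0287), and a change of -1.34 without both libraries that stood apart was also called (adjusted p = 0.0355). It was not called in limma after rescaling (log2 fold change -0.83, adjusted p = 0.257) or without WT library 1 (-1.67, adjusted p = 0.0902). Nor was it called without WT library 3 or without zmte1-2 library 1. Tubby-like F-box protein 6 (GRMZM2G176340), of a family that carries a tubby domain beside the F-box, was among the most abundant at 44.7, 26.4 and 36.5 FPKM in WT and 11.9, 15.2 and 15.1 FPKM in zmte1-2. It fell by 1.30 on the log2 scale (SE 0.39, adjusted p = 0.0406). The remaining falls were an F-box protein At5g07610 (GRMZM2G042752), F-box only protein 13 (GRMZM2G054032) and GRMZM2G169227.

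The F-box gene of highest FPKM rose. A gene described as F-box protein At2g36090 (GRMZM2G014022, chromosome 10 from 114529703 to 114531364) stood at 34.8, 32.7 and 53.2 FPKM in WT libraries 1 to 3 and at 128, 64.7 and 187 FPKM in zmte1-2 libraries 1 to 3 (log2 fold change 1.55, SE 0.51, adjusted p = 0.0489). zmte1-2 library 2 was the lowest of its genotype and lay above the WT libraries. FBL2 (GRMZM2G153075), an F-box protein with leucine-rich repeats by its name, stood at 6.04, 4.70 and 3.51 FPKM in WT and at 11.2, 13.6 and 11.8 FPKM in zmte1-2, where the libraries were close to each other (log2 fold change 1.30, SE 0.37, adjusted p = 0.0363). F-box/LRR-repeat protein 3 (GRMZM2G467147) had the highest log2 fold change of the F-box genes, 1.60 (SE 0.70), and did not pass (adjusted p = 0.0815). It stood at 4.04, 3.56 and 5.39 FPKM in WT libraries 1 to 3 and at 23.2, 4.31 and 26.2 FPKM in zmte1-2 libraries 1 to 3, so library 2 lay within WT and the others well above it. Without both libraries that stood apart 9 of the 20 F-box genes fell and 4 rose, beside 44.8% and 18.9% of all tested genes. Leaving out WT library 1, WT library 3 or zmte1-2 library 1 gave 0 called F-box genes in limma (7 lower and 2 higher, 6 and 1, and 7 and 3 at an unadjusted p under 0.05). Without WT library 2 it called 8 lower and 0 higher, beside 25.5% and 4.11% of all tested genes. Without zmte1-2 library 3 it called 1 lower and 0 higher, beside 17.6% and 1.86%.

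The adaptor SKP1 was barely present among the listed genes. The 3 genes described as SKP1-like protein 1A had at most 2.01 FPKM in any library, were under the minimum for a test and reached in zmte1-2 no more than 0.65 FPKM. No listed gene was described as a cullin. BTB proteins join a cullin without SKP1. Of 7 tested BTB genes 2 fell (28.6%, beside 34.2% of all tested genes), and their median log2 fold change was -1.17, beside -1.08. All 7 had a negative log2 fold change, as had 67.4% of all tested genes. After rescaling 5 of 6 were negative, beside 54.9%, and 0 were called (0 at an unadjusted p under 0.05). GRMZM2G138003 stood at 2.12, 1.66 and 1.53 FPKM in WT libraries 1 to 3 and at 0.39, 0.30 and 0.57 FPKM in zmte1-2 libraries 1 to 3. It had the smallest p of the BTB genes (log2 fold change -1.30, SE 0.25, adjusted p = 0.0174), but passed the FPKM minimum only through WT. GRMZM2G017486, described as BTB/POZ protein At3g50780-like, fell from 11.5, 6.06 and 8.79 FPKM in WT to 2.70, 1.61 and 3.51 FPKM in zmte1-2 (log2 fold change -1.59, SE 0.42, adjusted p = 0.0331). The BTB gene of highest FPKM joins the BTB to a MATH domain, which in Arabidopsis proteins of this kind binds the substrate. That gene, BTB/POZ and MATH domain-containing protein 1 (GRMZM2G574887), stood at 82.2, 55.6 and 67.4 FPKM in WT and at 49.5, 13.3 and 31.8 FPKM in zmte1-2. Its groups did not overlap, but the zmte1-2 libraries differed widely, and it missed the threshold (log2 fold change -1.27, SE 0.55, adjusted p = 0.0807). GRMZM2G162640, the second in abundance, also did not pass (log2 fold change -1.0, SE 0.36, adjusted p = 0.0571). Leaving out WT library 1, WT library 3 or zmte1-2 library 1 gave 0 called BTB genes in limma (3, 2 and 3 lower at an unadjusted p under 0.05). Without both libraries that stood apart 5 were lower, beside 44.8% of all tested genes.

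RING proteins were the largest group, with 60 listed and 38 tested genes, of which 14 fell and 2 rose, with a median log2 fold change of -1.14. These are 36.8% and 5.26% of the tested RING genes, near the 34.2% and 6.02% of all tested genes. After rescaling 4 of 39 RING genes fell and 4 rose, beside 5.15% and 15.2% of all tested genes. ATL genes are a plant family of RING-H2 ligases that are anchored in membranes. The descriptions name 17 of them, and all 11 that were tested had a negative log2 fold change (median -1.27), beside 67.4% of all tested genes (median -1.08). Of these 4 fell (36.4%, beside 34.2%) and 0 rose. After rescaling 9 were negative, 2 positive and 2 called lower, beside 54.9% negative and 5.15% called lower of all tested genes. Among those under the FPKM minimum, ATL2M (GRMZM2G482046) had a higher mean in zmte1-2, at 1.59 FPKM, beside 0.69 FPKM in WT. ATL3J (GRMZM2G024312, chromosome 2 from 14216990 to 14218585) stood at 6.90, 5.48 and 7.24 FPKM in WT libraries 1 to 3 and at 0.52, 0.53 and 0.26 FPKM in zmte1-2 libraries 1 to 3. It had the largest fall and the smallest p of the 91 tested members, with a mean 15.0-fold higher in WT (log2 fold change -2.91, SE 0.31, adjusted p = 0.00966). It passed the FPKM minimum only through WT. Its zmte1-2 values lay near or under the 0.5 FPKM added before the log2 scale, so the size of the fall is uncertain. ATL6 (GRMZM2G467187, chromosome 1 from 182195669 to 182197052) stood at 3.25, 1.71 and 2.49 FPKM in WT and at 0.19, 0.37 and 0.15 FPKM in zmte1-2 (log2 fold change -2.0, SE 0.29, adjusted p = 0.0114). The same limits hold for ATL6. In Arabidopsis ATL6 and its close relative ATL31 act in the response to the carbon and nitrogen balance and in defence. ATL31 (GRMZM2G329195) was under the FPKM minimum here, with 0.46, 2.01 and 2.20 FPKM in WT and 0.82, 0.23 and 0.50 FPKM in zmte1-2, and its groups overlapped. ATL79 (GRMZM2G409372) stood at 7.38, 4.62 and 10.9 FPKM in WT and at 1.31, 1.34 and 1.15 FPKM in zmte1-2 (log2 fold change -2.13, SE 0.40, adjusted p = 0.0161). ATL5I (GRMZM2G003725) was the other ATL gene that fell (log2 fold change -1.27, SE 0.40, adjusted p = 0.0453). Of the 11 tested ATL genes limma called 2 lower without WT library 1, beside 3.71% of all tested genes. It called 0 without WT library 3 or zmte1-2 library 1 (4 and 6 lower at an unadjusted p under 0.05). Without both libraries that stood apart it called 6 lower, beside 44.8%.

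EL5 is a RING-H2 ligase first described in rice as induced by a fungal elicitor, and 5 genes carry its name. Their levels and directions differed. GRMZM2G049070 (chromosome 1 from 69295677 to 69297058) stood at 38.3, 19.0 and 29.4 FPKM in WT libraries 1 to 3 and at 7.31, 4.91 and 6.41 FPKM in zmte1-2 libraries 1 to 3 (log2 fold change -2.09, SE 0.41, adjusted p = 0.0177). GRMZM2G340444 (chromosome 6 from 138774420 to 138776148) stood at 1.22, 2.21 and 0.77 FPKM in WT and at 3.14, 3.49 and 6.65 FPKM in zmte1-2 (log2 fold change 1.38, SE 0.44, adjusted p = 0.0460). So the most abundant of the 5 fell and a weakly expressed one rose. GRMZM2G004519 stood at 2.17, 4.13 and 6.55 FPKM in WT and at 0.12, 2.53 and 0.12 FPKM in zmte1-2, where library 2 lay within WT, and missed the threshold (log2 fold change -2.08, SE 0.70, adjusted p = 0.0514). GRMZM2G044773 was under the minimum for a test. It stood at 0.24, 0.24 and 0.78 FPKM in WT and at 0.79, 6.97 and 1.05 FPKM in zmte1-2. The last, GRMZM5G892467, stayed under 2 FPKM.

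Among the other RING genes the sharpest rise was in a gene described as a Ring zinc finger protein (GRMZM2G016668, chromosome 3 from 144132062 to 144134374). It stood at 2.46, 4.20 and 3.88 FPKM in WT libraries 1 to 3 and at 13.8, 14.5 and 11.8 FPKM in zmte1-2 libraries 1 to 3, with close values in each genotype (log2 fold change 1.81, SE 0.37, adjusted p = 0.0185). Its KEGG orthology is that of XBAT32 and XBAT33. The gene described as XBAT32 itself (GRMZM2G315072) moved the other way, with 35.5, 24.3 and 33.1 FPKM in WT and 9.06, 15.3 and 12.5 FPKM in zmte1-2 (log2 fold change -1.31, SE 0.39, adjusted p = 0.0410). XBAT32 carries ankyrin repeats beside its RING, and in Arabidopsis it promotes the formation of lateral roots. A BOI-related ligase (GRMZM2G110988) stood at 4.32, 2.26 and 3.33 FPKM in WT and at 0.39, 0.76 and 0.53 FPKM in zmte1-2 (log2 fold change -1.82, SE 0.33, adjusted p = 0.0148). This gene passed the FPKM minimum only through WT. In Arabidopsis BOI limits damage by the fungus Botrytis. A C3HC4-type RING gene (GRMZM2G320152) fell by 1.65 on the log2 scale (SE 0.36, adjusted p = 0.0222). Named after their values were seen, BIG BROTHER-like (GRMZM2G021498), whose Arabidopsis namesake limits organ size, fell by 1.41 (SE 0.46, adjusted p = 0.0487), and SINAT3 (GRMZM2G309063) fell by 1.13 (SE 0.37, adjusted p = 0.0483). GRMZM2G069923, a RING gene with 15.3, 24.3 and 17.3 FPKM in WT and 48.0, 28.5 and 39.3 FPKM in zmte1-2, did not pass (log2 fold change 1.0, SE 0.40, adjusted p = 0.0701), though its groups did not overlap. RMA1 (GRMZM2G078526), whose Arabidopsis namesake sits in the endoplasmic reticulum, was the RING gene of highest FPKM. It stood at 138, 60.4 and 40.7 FPKM in WT libraries 1 to 3 and at 14.9, 54.9 and 12.7 FPKM in zmte1-2 libraries 1 to 3, so zmte1-2 library 2 lay between WT libraries 2 and 3, and it missed the threshold (log2 fold change -1.65, SE 0.72, adjusted p = 0.0821). Of the 38 RING genes limma called 2 lower and 0 higher without WT library 1, beside 3.71% and 0.251% of all tested genes. It called 0 without WT library 3 or zmte1-2 library 1 (11 lower and 2 higher, and 12 and 2, at an unadjusted p under 0.05). Without zmte1-2 library 3 it called 8 lower and 1 higher, beside 17.6% and 1.86%. With both libraries that stood apart removed, 20 RING genes were lower and 6 higher, beside 44.8% and 18.9% of all tested genes.

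Of 13 listed U-box genes 8 were tested, 3 fell (37.5%, beside 34.2% of all tested genes) and 0 rose, and after rescaling 0 were called (0 at an unadjusted p under 0.05). The genes that fell were weakly expressed. U-box domain-containing protein 7 (GRMZM5G821267) stood at 4.42, 2.45 and 4.34 FPKM in WT libraries 1 to 3 and at 1.16, 1.10 and 1.11 FPKM in zmte1-2 libraries 1 to 3 (log2 fold change -1.35, SE 0.33, adjusted p = 0.0278). GRMZM2G028870, described as a RING/U-box protein and counted here, stood at 1.73, 2.70 and 2.94 FPKM in WT and at 1.07, 0.55 and 0.48 FPKM in zmte1-2 (log2 fold change -1.31, SE 0.33, adjusted p = 0.0288). The third was U-box domain-containing protein 39 (GRMZM5G893055).

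In the U-box genes with the highest mean FPKM over all 6 libraries, zmte1-2 library 2 stood far above the other libraries, and they are described here because of it. That library itself raises the mean, so their rank by abundance is not separate from its high values. U-box domain-containing protein 27 also passed the FPKM minimum only through that library. U-box domain-containing protein 27 (GRMZM2G127690) stood at 4.30, 0.99 and 1.41 FPKM in WT libraries 1 to 3 and at 0.48, 28.5 and 0.24 FPKM in zmte1-2 libraries 1 to 3. U-box domain-containing protein 44 (GRMZM2G037422) stood at 9.24, 4.41 and 5.19 FPKM in WT and at 4.48, 32.6 and 2.66 FPKM in zmte1-2. GRMZM2G303964 stood at 11.3, 11.5 and 4.65 FPKM in WT and at 9.44, 80.2 and 6.86 FPKM in zmte1-2. In each of these genes zmte1-2 library 2 was the highest of all 6 libraries, and libraries 1 and 3 lay within or below WT. Their log2 fold changes over all libraries were 0.21 (SE 1.37), 0.31 (SE 0.88) and 1.0 (SE 0.94), with adjusted p = 0.890, 0.745 and 0.350. Without zmte1-2 library 2 they were -1.49, -0.71 and -0.08, which follows from how these genes were chosen and is given without a test. In a RING gene, GRMZM2G015753, zmte1-2 library 2 was also the highest, with 3.58, 3.39 and 3.5 FPKM in WT and 3.83, 21.4 and 2.54 FPKM in zmte1-2. Leaving out WT library 1 or 3 or zmte1-2 library 1 or 3 gave 0 called U-box genes of 8 in limma, with 3 lower at an unadjusted p under 0.05 each time. Without both libraries that stood apart it called 5 lower, beside 44.8% of all tested genes.

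On the log2 scale zmte1-2 library 2 exceeded the mean of libraries 1 and 3 by more than 1 in 4 of the 8 tested U-box genes, 6 of 38 RING genes and 3 of 20 F-box genes. Over the 91 tested members this held for 16 (17.6%), beside 21.0% of all tested genes. It lay lower by more than 1 in 12 members (13.2%), beside 22.4% of all tested genes. Neither share of the members was above that of all tested genes, and the U-box count was chosen after its values were seen. Besides F-box/LRR-repeat protein 3, the members lowest in library 2 relative to libraries 1 and 3 were an E2 gene (GRMZM2G007057) and RING genes. GRMZM2G018631 stood at 9.65, 0.83 and 8.26 FPKM in zmte1-2 libraries 1 to 3 and at 0.39 to 1.76 FPKM in WT. GRMZM2G122848 stood at 44.3, 9.54 and 31.2 FPKM in zmte1-2 and at 5.68, 14.0 and 19.3 FPKM in WT libraries 1 to 3, and GRMZM2G440125 at 8.89, 1.39 and 6.07 FPKM in zmte1-2 and 2.35 to 2.81 FPKM in WT. In these genes library 2 lay within or below WT, and libraries 1 and 3 above it. They were chosen for their low value in library 2, and they did not pass over all libraries (adjusted p = 0.113, 0.229 and 0.351).

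**Figure D3:**
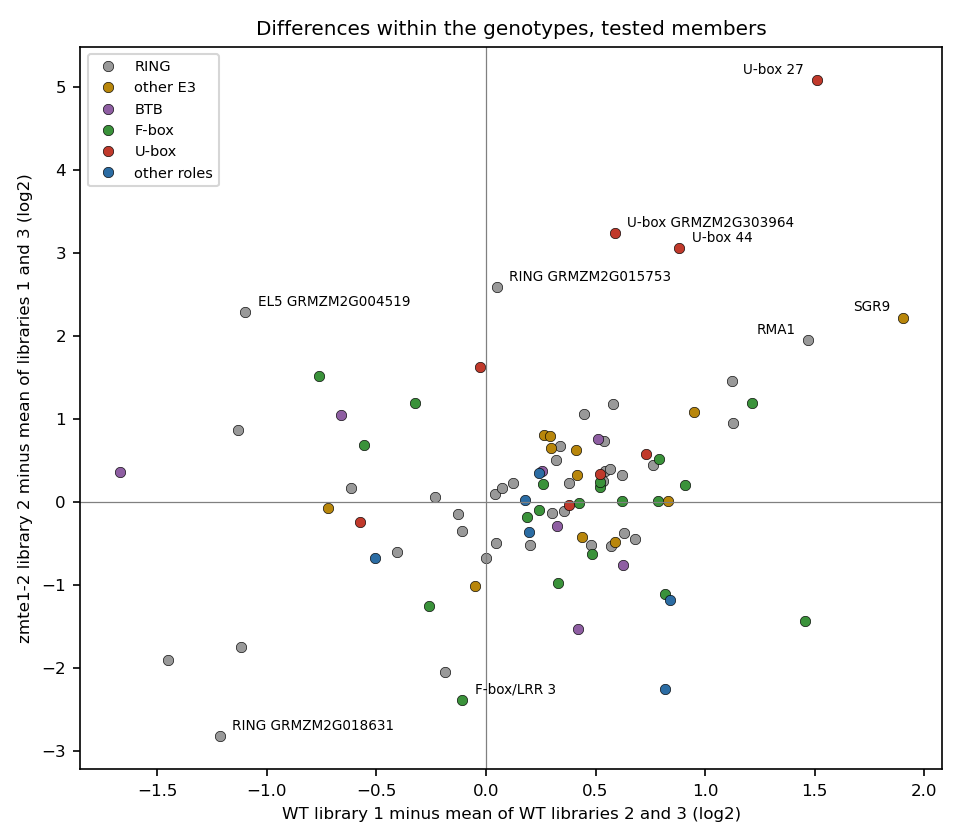
For each of the 91 tested members, the difference of zmte1-2 library 2 from the mean of libraries 1 and 3 (vertical axis, log2) against the difference of WT library 1 from the mean of libraries 2 and 3 (horizontal axis, log2), coloured by role. U-box domain-containing protein 27 lies highest, at 5.09, followed by 2 more U-box genes above 3, while F-box/LRR-repeat protein 3 lies near the bottom at -2.39.

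Most ligases that the search words for the other roles left over missed the threshold. The descriptions of these ligases do not spell out a type, but genes such as RLIM, HERC2 and synoviolin are not shown to lack one. Of 12 tested, 1 fell (8.33%, beside 34.2% of all tested genes) and 0 rose (beside 6.02%). The log2 fold change was negative in 11 (median -0.98), beside 67.4% of all tested genes (median -1.08). After rescaling 4 were negative and 7 positive, beside 54.9% of all tested genes negative. Then 0 were called lower and 1 higher, beside 5.15% and 15.2% of all tested genes. The fall was in GRMZM2G152408, a zinc-binding ligase at 2.52, 1.78 and 1.68 FPKM in WT libraries 1 to 3 and 1.08, 0.58 and 0.83 FPKM in zmte1-2 libraries 1 to 3 (log2 fold change -0.91, SE 0.29, adjusted p = 0.0471). The most abundant were RLIM (GRMZM2G135909), GRMZM2G090279 and GRMZM2G065612, with means of 11.3 to 13.7 FPKM in WT and 5.06 to 6.61 FPKM in zmte1-2. Their groups did not overlap, and their adjusted p ran from 0.0576 to 0.0689. GRMZM2G109140, with means of 11 FPKM in WT and 4.78 FPKM in zmte1-2, had an adjusted p of 0.0514. Without WT library 1, 2 or 3 or without zmte1-2 library 1 or 3 limma called 0 of these 12 (1, 8, 1, 1 and 1 lower at an unadjusted p under 0.05). Without both libraries that stood apart 6 fell and 1 rose, beside 44.8% and 18.9% of all tested genes.

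Deubiquitinases, which remove ubiquitin, had 4 listed and 2 tested genes, and limma called 0 of them (1 lower at an unadjusted p under 0.05). A ubiquitin carboxyl-terminal hydrolase (GRMZM2G091069) stood at 10.1, 9.35 and 8.11 FPKM in WT libraries 1 to 3 and at 4.18, 3.55 and 5.30 FPKM in zmte1-2 libraries 1 to 3, and its groups did not overlap (log2 fold change -1.01, SE 0.35, adjusted p = 0.0530). GRMZM2G301909 was near 1 FPKM in WT and stood at 5.18, 1.69 and 1.64 FPKM in zmte1-2 (adjusted p = 0.149). Of the ubiquitin-binding proteins 1 gene was tested, a proteasomal ubiquitin receptor described as ADRM1-like (GRMZM2G509876, chromosome 8 from 81401465 to 81402420). ADRM1 receives ubiquitin-marked proteins at the proteasome, but the KEGG orthology of this gene names a mandelonitrile lyase, so its identity is uncertain. It stood at 7.44, 4.45 and 8.63 FPKM in WT and at 0.82, 1.24 and 0.92 FPKM in zmte1-2 (log2 fold change -2.26, SE 0.37, adjusted p = 0.0127). Its log2 fold change stayed at -2.18 with WT library 1 left out, at -2.08 with WT library 3 left out and at -2.18 with zmte1-2 library 1 left out, but it was then no longer called (adjusted p = 0.0512, 0.0683 and 0.073).

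Some genes that share a description lay on the same side of WT and others did not. The second GID2 gene (GRMZM2G095397) stood at 6.65, 3.88 and 5.47 FPKM in WT libraries 1 to 3 and at 3.21, 1.56 and 2.25 FPKM in zmte1-2 libraries 1 to 3. Like the first it lay lower in every zmte1-2 library, but it did not pass (log2 fold change -1.05, SE 0.39, adjusted p = 0.0603). The F-box only protein 13 genes changed by -1.45 (GRMZM2G054032, SE 0.33, adjusted p = 0.0242) and -1.04 (GRMZM2G125004, SE 0.35, adjusted p = 0.0502). The second At2g36090 gene (GRMZM6G436821) stood at 3.10, 1.22 and 0.90 FPKM in WT and at 3.31, 8.31 and 3.37 FPKM in zmte1-2, above WT as the first was (log2 fold change 1.30, SE 0.52, adjusted p = 0.0701). PUB23, a U-box ligase that in Arabidopsis dampens immune responses, names 4 genes that did not share a pattern. The tested one (GRMZM2G135713) stood at 2.15, 3.08 and 1.54 FPKM in WT and at 0.38, 2.02 and 0.26 FPKM in zmte1-2 (adjusted p = 0.0816), and the others had at most 1.37 FPKM. Of these others GRMZM2G031624 lay below WT in every zmte1-2 library and GRMZM2G092128 above it. How reads were divided between genes of similar sequence was not given in the sources used here, which makes values of such genes uncertain.

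**Figure D4:**
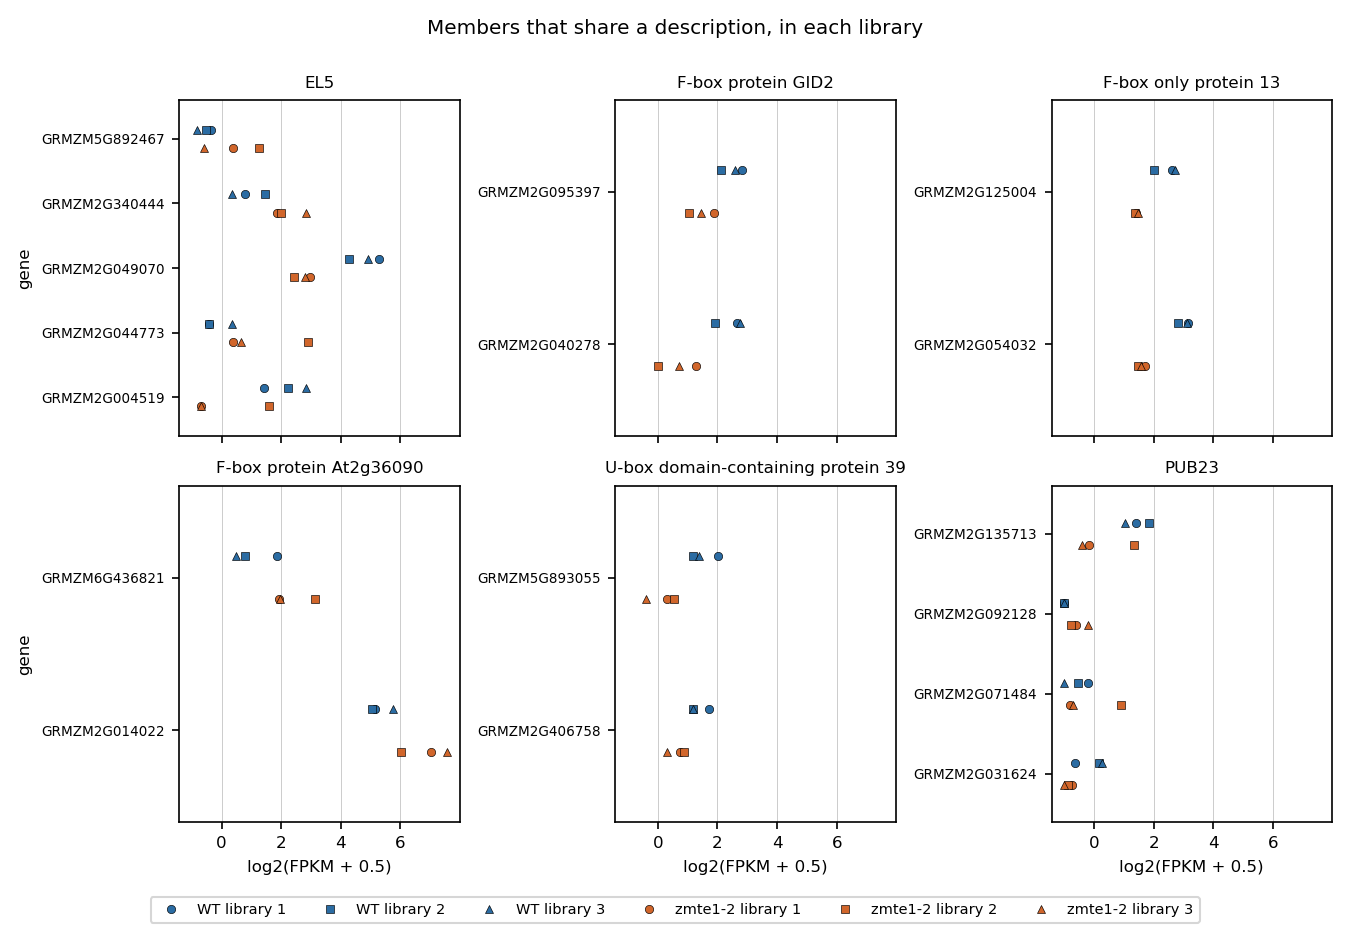
log2(FPKM + 0.5) in each library for members that share a description, with WT in blue, zmte1-2 in orange and a marker shape for each library. Both GID2 genes, both F-box only protein 13 genes and both U-box domain-containing protein 39 genes lie lower in zmte1-2 and both At2g36090 genes higher, whereas EL5 genes lie on both sides.

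Beyond the members, 55 listed genes belonged to a wider list of the pathway. Of the 44 tested, 24 fell and 3 rose (54.5% and 6.82%, beside 34.2% and 6.02% of all tested genes). After rescaling 3 of 40 fell and 5 rose, beside 5.15% and 15.2% of all tested genes. This list is mixed, since 49 of the 55 were taken by KEGG pathway alone and many of these are described as NAC transcription factors or as uncharacterised. By description 6 belonged to it, and 3 of the 4 tested fell (75.0%, beside 34.2% of all tested genes). The SUMO-conjugating enzyme SCE1 (GRMZM2G038851) stood at 3.13, 1.06 and 2.49 FPKM in WT libraries 1 to 3 and at 0.49, 0.21 and 0.21 FPKM in zmte1-2 libraries 1 to 3 (log2 fold change -1.69, adjusted p = 0.0222). It passed the FPKM minimum only through WT. Proteasome subunit alpha type-1 (GRMZM2G025303), of the core that degrades marked proteins, stood at 7.20, 6.51 and 6.12 FPKM in WT and at 2.62, 3.46 and 2.77 FPKM in zmte1-2 (log2 fold change -1.05, adjusted p = 0.0447). GRMZM2G398848, described as a transport inhibitor response 1-like protein, an F-box receptor of auxin, fell by 1.54 on the log2 scale and had an adjusted p of 0.0440, and a second (GRMZM2G135978) an adjusted p of 0.0533. Of its 44 tested genes the list had 3 falls without WT library 1, beside 3.71% of all tested genes. It had 0 without WT library 3 or zmte1-2 library 1 (23 and 19 lower at an unadjusted p under 0.05), beside 0.0502% and 0.0251%. Without zmte1-2 library 3 the list had 12 falls, beside 17.6% of all tested genes, and without both libraries that stood apart 26, beside 44.8%.

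Members were spread over all 10 chromosomes. Of the 597 listed genes on chromosome 3, which holds ZmTE1, 11 were members (1.84%, beside 2.12% to 3.69% on the other chromosomes). Of these 3 fell and 1 rose, beside 34.2% and 6.02% of all tested genes. These small counts are not a result about the chromosome. The nearest to ZmTE1 was PUB23 (GRMZM2G135713), 10.8 Mb away, followed by U-box domain-containing protein 44 (GRMZM2G037422) at 15.0 Mb, the Ring zinc finger gene that rose (GRMZM2G016668) at 21.1 Mb and the BTB gene GRMZM2G138003 at 27.1 Mb. How much of this chromosome zmte1-2 still shares with the mutagenised parent was not given in the sources used here.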

How the data were processed

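RNA from nodes of 3 WT and 3 zmte1-2 libraries (28 days) was sequenced by a company. The authors deposited FPKM per library for the 5546 genes they had called at their thresholds. Aligner, counter, genome build and test were not given in the sources used here. Not used were 12 columns with the authors' own ratios, p-values and q-values, and 2 columns of group means. The labels number the libraries 1 to 3 without saying what a number stands for. Without the depth no counting interval could be given.

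The genotypes were compared with limma 3.58.1 (R 4.3.3; lmFit and two-sided tests from eBayes with trend) on log2(FPKM + 0.5), which understates changes of weakly expressed genes. Genes in which 3 or more libraries reached an FPKM of 1 were tested (3987 genes), and p-values were adjusted by the Benjamini-Hochberg method over all of them and called under 0.05. The script was tested on simulated data. Alternatives were other pseudocounts (0.1, 1), another or no FPKM minimum, median-of-ratios rescaling, no trend, a replicate block, each library left out, and membership by KEGG. Members, lists, roles (first match in the description) and tests were chosen with earlier results of these data known. Named were, per role, the 3 most abundant tested members and the 2 with the smallest p, the 10 largest falls and all rises among called members whose groups do not overlap, and the 5 members highest and the 5 lowest in zmte1-2 library 2. Other genes were named after their values were seen. RefSeq (Zm-B73-REFERENCE-NAM-5.0) matched 100 of the 133 members, without further names. No sequences were used here.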

Additional observations from a re-analysis of the deposited data

How the results depend on the processing

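Of the members 29 were lower and 4 higher, of the wider pathway list 24 and 3, and of all tested genes 1603 were called. Counts within 1.5 times of these were found with pseudocounts of 0.1 and 1 and without the mean-variance trend, and without an FPKM minimum except for 2 members higher. With an FPKM minimum of 5 the calls were 18 members lower, 14 of the pathway list lower and 960 genes in all, where fewer genes were tested. Median-of-ratios rescaling gave 5 members lower and 10 higher, 3 and 5 of the pathway list, and 790 genes in all. Taking only members that KEGG also names left 14 lower, of fewer genes. With WT library 1 and zmte1-2 library 2 removed together, added as an alternative once the data had been seen, the calls were 47 and 11 members, 6 of the pathway list higher, and 2543 genes. Leaving out each library in turn gave 0 to 52 members lower, 0 to 10 higher, 0 to 30 of the pathway list lower, 0 to 6 higher and 2 to 2754 genes in all; the lowest counts came without WT library 3 or zmte1-2 library 1 and the highest without zmte1-2 library 2.

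Deviations from the genotype means correlated at -0.305, -0.399 and 0.406 between libraries numbered 1, 2 and 3, so libraries 3 deviated together but libraries 1 and 2 did not, and the numbers were not taken as pairs. A fit with the replicate block called 0 members lower and 0 higher (30 and 7 at an unadjusted p under 0.05), 0 and 0 of the pathway list, and 2 genes in all.

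Of the named genes, some changed sign. After rescaling the log2 fold change of GRMZM2G090279 was 0.010, that of GRMZM2G091069 0.066, that of GRMZM2G135909 0.077 and that of GRMZM2G162640 0.115. With 1 library left out at a time it ranged from -0.137 to 1.29 for GRMZM2G015753, -0.708 to 0.986 for GRMZM2G037422, -1.49 to 1.16 for GRMZM2G127690 and -0.0764 to 1.65 for GRMZM2G303964, each lowest without zmte1-2 library 2. Without that library and WT library 1 it was -0.121 for GRMZM2G015753, -0.414 for GRMZM2G037422 and -0.986 for GRMZM2G127690, and for the last also -0.120 with a pseudocount of 0.1. The causes were not tested. Unknown depth limits what can be said of low FPKM.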
